A study of Mus musculus with 10 samples.

Results

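Sox9, Hes1, Hhex and Pdx1 are transcription factors that mark the ductal and progenitor state of the pancreatic epithelium, and their transcripts were compared between tuft cells and the remaining epithelium of the inflamed mouse pancreas. The 4 genes were picked by name from the deposited expression table of 12160 genes, which lists 3 of them. Pdx1 is not listed there, so its level was not analysed here. Expression was measured by Smart-Seq2, a full-length RNA-seq protocol for small inputs, in 10 libraries of 100 sorted cells each. All mice were wild type males with pancreatitis induced by caerulein, a cholecystokinin analog that injures acinar cells. Their strain is given as CD1 in one label and as Mixed in another, and neither their age nor a transgene is given. The 5 tuft libraries held Cd45-neg, EpCAM+ and Siglec F+ cells, each from its own mouse, and the non-tuft cells were sorted from mice of the same set of 5. The 5 non-tuft libraries held Cd45-neg, EpCAM+ and Siglec F-neg cells, which is a sort on the absence of 1 marker and keeps any epithelial type of the injured gland. There were no uninjured mice in the series, so no value below is a response to caerulein. In bulk samples such as these, fewer cells of a type and less RNA per cell cannot be told apart.

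In the developing pancreas, Sox9 maintains the multipotent progenitor pool, and in the adult it stays on in ductal and centroacinar cells. Hes1 is the transcriptional repressor through which Notch signaling keeps progenitors from differentiating. Hhex is a homeodomain factor needed to form the ventral pancreas bud, and in the adult it is known from ducts and from islet delta cells, while Pdx1 is required for pancreas formation and is kept high in beta cells. During acinar to ductal metaplasia, injured acinar cells turn on ductal and progenitor genes, and tuft cells, which are chemosensory epithelial cells, appear in these lesions.

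The members did not move together. Sox9 was abundant in both populations, and the difference between them did not pass the test. Hes1 and Hhex were both lower in the tuft libraries, by 6.74-fold and 6.67-fold on the log2(RPKM + 1) scale, and for neither gene did any tuft library reach the lowest non-tuft library. A gene was called when the limma adjusted p was under 0.05 and the fold change was over 4, which held for 2 of the 3 listed members. Of all 12160 listed genes, 8.31% were called, with 3.99% of all listed genes lower and 4.32% higher in tuft cells. The ranges of the groups did not overlap for 11.4% of all listed genes, and for 5.12% with the tuft libraries below.

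**Figure D1:**
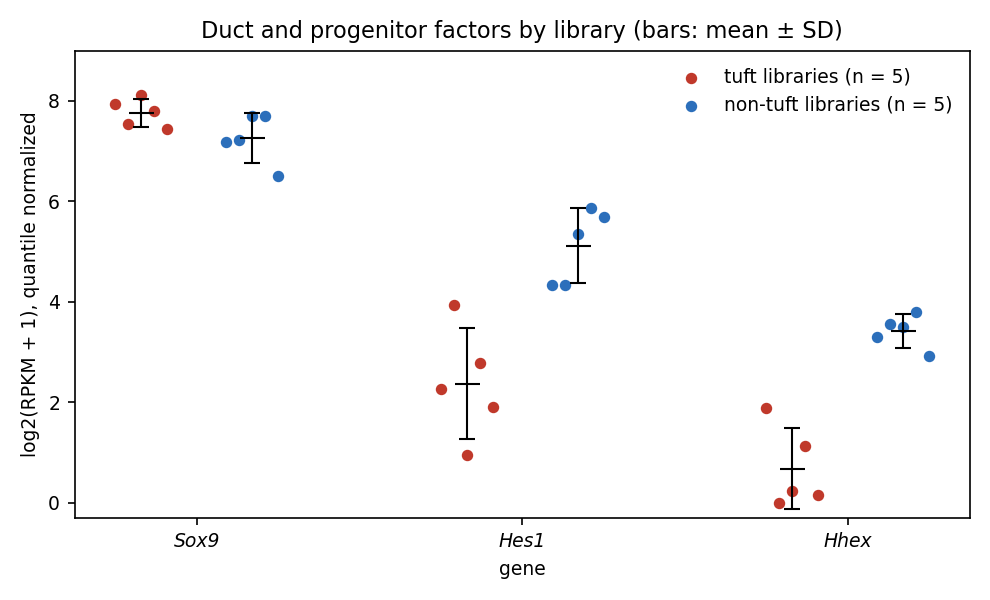
Deposited log2(RPKM + 1) values of Sox9, Hes1 and Hhex, with 1 point per library and bars giving the mean ± SD of 5 tuft (red) and 5 non-tuft (blue) libraries. The Sox9 groups overlap, while every tuft value of Hes1 (0.95 to 3.94) and of Hhex (0 to 1.88) lies below every non-tuft value.

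The libraries carried the markers of their sort. Of 44 listed tuft markers, 41 were called higher in the tuft libraries. Siglecf, which encodes the sorted antigen, measured 5.62 to 7.52 in tuft cells and was listed at the floor in 4 of 5 non-tuft libraries. The list includes Siglecf and was chosen with earlier results of these data known, so its count is no independent check of the sort. Non-tuft libraries were not free of tuft markers, whose summed RPKM was 148 to 1155 there and 7735 to 16642 in tuft libraries. Dclk1 measured 8.46 in non-tuft 2 and 0 in non-tuft 4, against 10.68 to 12.73 in tuft libraries. The floor is the lowest value that a library lists, 0 in every library but non-tuft 2, where it is 0.17. Of 40 listed acinar markers, 32 were called lower in the tuft libraries, and their summed RPKM was 2499 to 148439 in tuft and 175131 to 229085 in non-tuft cells. Epcam, the antigen shared by both sorts, measured 9.19 to 10.87 in tuft and 7.44 to 9.08 in non-tuft libraries, a difference of 1.72 (limma adjusted p = 0.0329, over 0.05 in 5 of the 10 fits that left out 1 library). Ptprc, which encodes CD45, is 1 of the 41 tuft markers called higher and was looked up after its values were seen. It measured 2.74 to 4.33 in tuft and 0 to 1.93 in non-tuft libraries. Both sorts were gated as Cd45-neg, but that gate reads surface protein and these values are RNA. The table gives no counts, so sequencing depth is unknown, and 1442 to 3753 genes stood at the floor of a library.

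Sox9 (ENSMUSG00000000567, chr11:112643538-112649074 in mm9, plus strand, 3 exons) is the SOX-family factor of ducts and progenitors. Its log2(RPKM + 1) in tuft libraries 1 to 5 was 7.95, 7.54, 8.12, 7.80 and 7.45. In non-tuft libraries 1 to 5 it was 7.19, 7.23, 7.70, 7.70 and 6.50. The groups overlapped, since non-tuft 3 and 4 were above tuft 2 and 5, and the lowest value of all came from non-tuft 5. The means were 7.77 ± 0.28 (SD, n = 5) in tuft and 7.26 ± 0.49 (SD, n = 5) in non-tuft cells. The log2 difference, tuft minus non-tuft, was 0.51 ± 0.38 (SE), with a 95% confidence interval of -0.31 to 1.32 and a limma adjusted p of 0.451. The exact two-sided permutation test over libraries gave p = 0.0714. These tests do not show that the levels were equal, but on the deposited scale the interval does not reach a 4-fold difference in either direction. With the libraries centred on 80 ribosomal protein genes instead, the Sox9 difference was 1.35 ± 0.43 (SE) with a limma adjusted p of 0.0394. On that scale the median of all genes shifted from 0.02 to 0.87, and the bound given above does not carry over to it. On the linear scale Sox9 averaged 220 RPKM in tuft and 159 RPKM in non-tuft cells, which placed it above 97.2% to 98.3% of the listed genes in each tuft library and above 94.5% to 97.7% in each non-tuft library.

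Hes1 (ENSMUSG00000022528, chr16:30064470-30067882 in mm9, plus strand, 4 exons) encodes the basic helix-loop-helix repressor downstream of Notch. Its log2 values were 2.26, 3.94, 0.95, 2.78 and 1.90 in tuft libraries 1 to 5. They were 4.33, 4.34, 5.36, 5.87 and 5.70 in non-tuft libraries 1 to 5. Tuft 2 was the highest tuft library and stood 0.39 below non-tuft 1, the lowest non-tuft library, while tuft 3 was the lowest of all. The mean was 2.37 ± 1.10 (SD, n = 5) in tuft and 5.12 ± 0.74 (SD, n = 5) in non-tuft cells. The difference of -2.75 ± 0.56 (SE, 95% confidence interval -3.97 to -1.53) had a limma adjusted p of 0.00617. The exact permutation p of 0.00794 is the smallest that 5 against 5 libraries allow when they are taken as unpaired. In RPKM the means were 5.54 and 37.4. The median tuft library ranked Hes1 above 42.9% of listed genes, and the median non-tuft library ranked it above 87.7%. Hes1 was off the floor in every tuft library, but tuft 3 ranked it above only 24.7% of listed genes. With ribosomal centring the difference was -1.91 with an adjusted p of 0.0291, which is under the 4-fold threshold. Tuft 5 and non-tuft 5 stood apart from the other libraries in fibroblast genes, as described below, and without both the Hes1 difference was -2.49 with an adjusted p of 0.0533, so that it was no longer called.

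Hhex (ENSMUSG00000024986, chr19:37507377-37515218 in mm9, plus strand, 4 exons) encodes the hematopoietically expressed homeobox factor. Tuft libraries 1 to 5 gave 1.88, 0, 0.24, 1.13 and 0.15 on the log2 scale, of which the 0 of tuft 2 is the floor. Non-tuft libraries 1 to 5 gave 3.30, 3.57, 3.50, 3.80 and 2.92. Tuft 1 was the highest tuft library and lay 1.04 below non-tuft 5, and the non-tuft values were close to one another. The means were 0.68 ± 0.80 (SD, n = 5) in tuft and 3.42 ± 0.33 (SD, n = 5) in non-tuft cells, or 0.834 and 9.92 in RPKM. The difference was -2.74 ± 0.44 (SE; 95% confidence interval -3.69 to -1.78), with a limma adjusted p of 0.00136 and an exact permutation p of 0.00794. Because Hhex is near the floor in tuft cells, the size of the fold change depends on the constant added before the logarithm. It was -4.40 with 0.1 added and -0.88 with 10 added, with adjusted p of 0.00985 and 0.00124. With ribosomal centring it was -1.89 with an adjusted p of 0.00606, and without both libraries numbered 5 it was -2.73 with an adjusted p of 0.00916.

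The Hhex promoter is shown because Hhex is the listed member nearest to the floor in tuft cells and the 1 listed member with a promoter in the RefSeq table used here. It runs from 250 bases before to 50 bases after the start site, chr19:37434591-37434890 on the plus strand of GRCm38.p6, a later build than the mm9 of the expression data. Capitals mark GGGCGG, the GC box bound by Sp factors, and ATTGG, which is CCAAT read on the other strand.

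Hhex promoter: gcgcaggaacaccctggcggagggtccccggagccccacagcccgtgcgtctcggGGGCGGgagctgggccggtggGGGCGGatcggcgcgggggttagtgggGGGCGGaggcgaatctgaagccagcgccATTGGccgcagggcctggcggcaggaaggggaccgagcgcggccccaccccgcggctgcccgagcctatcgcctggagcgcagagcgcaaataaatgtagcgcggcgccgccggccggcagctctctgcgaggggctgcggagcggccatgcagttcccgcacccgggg

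The GC boxes began at -195, -174 and -147 and the CCAAT box at -119 from the start site. The window was 75.7% G and C with 37 CpG dinucleotides, against medians of 52.7% and 7 over 32851 RefSeq promoters of the same length, of which 96.9% had a lower GC content and 94.4% had fewer CpG. GGGCGG on either strand was present in 35.7% of all these promoters and CCAAT in 37.4%, and both were searched after the sequence had been seen. On either strand, the window held no GTGGGAA, the motif of the Notch effector RBPJ, which 6.38% of promoters hold. It also held no CACNAG, the N-box bound by Hes factors (42.5% of promoters), no CACGTG E-box (7.15%), no ACAATGG SOX motif (3.66%), no TAATTA homeodomain core (5.29%) and no ATCGAT Onecut motif (0.925%). These are letters in 1 window and not measured binding.

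Pdx1 (ENSMUSG00000029644, chr5:148081535-148089584 in mm9, plus strand, 2 exons) has no value to report. Of the 17 genes written down as known Pdx1 targets, 11 were listed. Among these, 2 were called lower in tuft cells and none higher, beside 3.99% of all listed genes called lower and 4.32% higher. Without non-tuft 4, 4 were called lower, and without any other library 2 or 3. Fgfr1, a fibroblast growth factor receptor, measured 0 to 0.75 in tuft and 3.39 to 4.25 in non-tuft libraries, a difference of -3.43 (limma adjusted p = 8.37e-05). Cela1, an elastase of acinar cells, differed by -4.08 (adjusted p = 0.00376). The beta cell genes of this list were uneven among the non-tuft libraries. Ins2, encoding insulin, measured 12.86 in non-tuft 1 and 0 in non-tuft 4, and its difference of -3.95 had an adjusted p of 0.21.

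Within each library the order of the members was the same, with Sox9 highest, Hes1 next and Hhex lowest in all 10 libraries. RPKM are scaled by gene length, so these levels can be set side by side. Sox9 exceeded Hes1 by 5.40 ± 1.29 log2 units (SD, n = 5) in tuft and by 2.14 ± 0.87 in non-tuft cells, and it exceeded Hhex by 7.09 ± 0.72 in tuft and by 3.84 ± 0.24 in non-tuft cells. For both pairs, the narrowest difference among tuft libraries exceeded the widest among non-tuft libraries (exact permutation p = 0.00794 for each, not adjusted for the 3 pairs). Hes1 exceeded Hhex by 1.69 ± 1.39 in tuft and by 1.70 ± 0.81 in non-tuft cells (exact permutation p = 0.992). These differences are taken within a library and do not depend on how libraries are centred. Those with Hhex do depend on the constant added before the logarithm, because Hhex is near the floor in tuft cells. With 0.1 added in place of 1, the tuft minus non-tuft difference was -3.09 for Hes1 and -4.40 for Hhex. With 10 added it was -1.58 and -0.88, so the like gaps between Hes1 and Hhex do not show an equal fall.

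The wider set of duct and progenitor factors was mixed. Of 38 factors written down for the list, which includes the 4 members, 31 were listed. In tuft cells 2 were called higher and 5 lower, beside 4.32% of all listed genes called higher and 3.99% lower. The median log2 difference was -0.87 against 0.02 for all genes. With ribosomal centring, 4 were called higher and 2 lower, and the median was -0.02 against 0.87 for all genes. Without 1 library in turn, 1 to 2 were called higher and 4 to 5 lower.

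Besides Hes1 and Hhex, the factors called lower were Ptf1a, Tead2 and Nr5a2. Ptf1a, which drives acinar fate, stood at the floor in 3 tuft libraries and reached 0.62 in the highest, against 4.03 to 5.17 in non-tuft libraries. Its difference of -4.51 had a limma adjusted p of 1.01e-05, and its groups did not overlap. Tead2, a DNA-binding partner of Yap1, measured 0 to 2.48 in tuft and 4.11 to 5.05 in non-tuft libraries (-3.33, adjusted p = 0.000527). Nr5a2, an acinar nuclear receptor, differed by -2.60 (adjusted p = 0.0399), with overlapping groups and an adjusted p over 0.05 in 7 of the 10 fits that left out 1 library.

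The factors called higher were Klf4 and Hnf4a. Klf4, a factor of differentiating epithelia that is linked to metaplasia, measured 4.13 to 6.07 in tuft libraries and 0.19 to 4.32 in non-tuft libraries, where non-tuft 4 was the highest (3.33, limma adjusted p = 0.00804). Hnf4a, a nuclear receptor of gut and liver epithelium, differed by 2.03 (adjusted p = 0.0496) with overlapping groups, and 9 of the 10 fits that left out 1 library put it over 0.05. Ehf, an Ets factor of epithelia, was higher by 1.27 (adjusted p = 0.0369) and Creb3l1 lower by 1.39 on the log2 scale (adjusted p = 0.0437), both under the fold threshold and both without overlap. Leaving out 1 library took the adjusted p over 0.05 in 6 of 10 fits for Ehf and in 7 of 10 for Creb3l1. An adjusted p under 0.05 at any fold, which 11.7% of all genes reached, held for 9 of the 31.

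Several other factors of the duct and progenitor state did not pass the test. Foxa2, of foregut endoderm, measured 2.60 to 4.95 in tuft and 4.16 to 5.92 in non-tuft libraries (-1.42, limma adjusted p = 0.0983). Onecut2, of the Onecut family, differed by 0.76 (adjusted p = 0.46). Yap1, the Hippo pathway coactivator, differed by -1.04 (adjusted p = 0.234) although its groups did not overlap, with non-tuft 4 at 5.82 and the other non-tuft libraries at 3.10 to 3.38. Besides Pdx1, the factors Onecut1, Nkx6-1, Nkx2-2, Mnx1, Neurog3 and Sox17 were not listed.

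**Figure D2:**
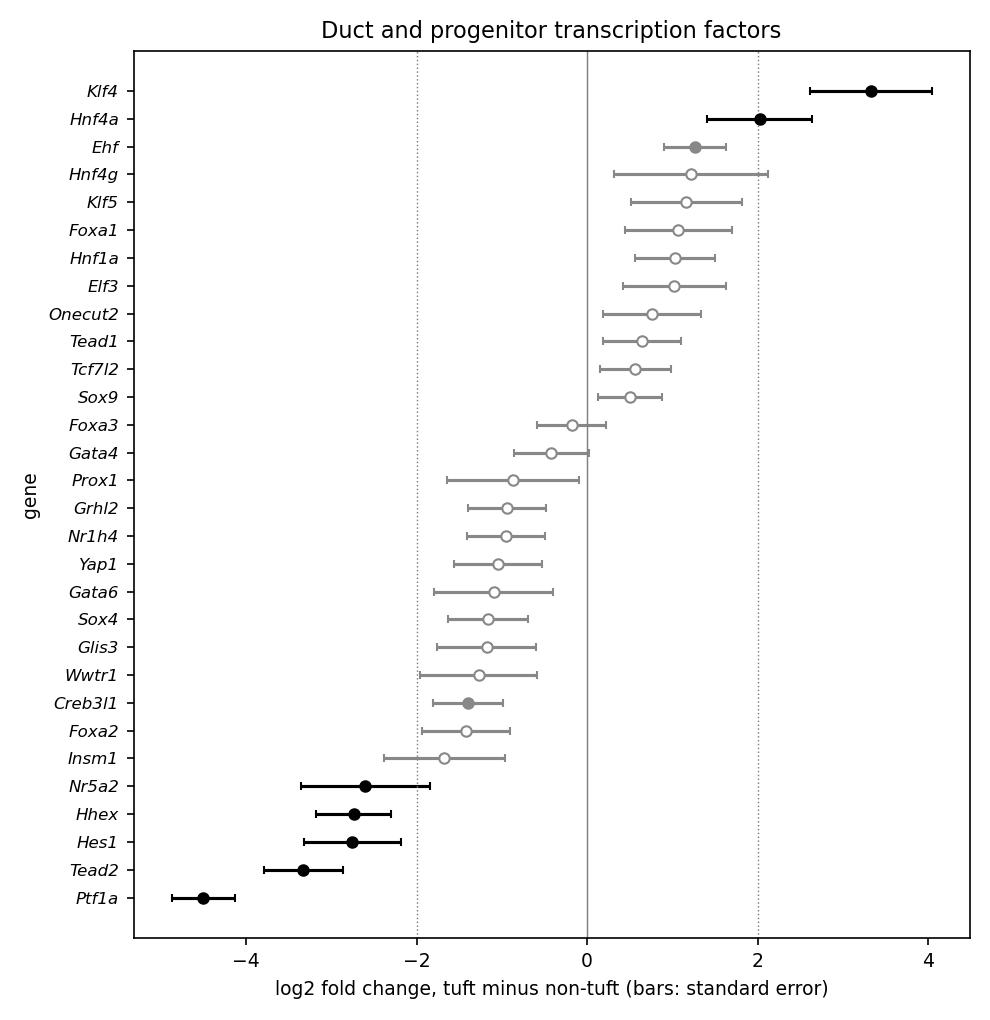
Log2 difference, tuft minus non-tuft, of 30 duct and progenitor factors, ordered by size, with bars giving the standard error. Filled black points were called, filled grey points had an adjusted p under 0.05 with a smaller fold, and open points did not pass, with dotted lines at a 4-fold difference; Sox9 lies at 0.51, Hes1 at -2.75 and Hhex at -2.74.

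Hes1 is a target of Notch, in which a ligand on one cell binds the receptor on its neighbour, and proteolysis then frees the receptor's intracellular domain, which acts with Rbpj and Maml proteins on target genes. Of 55 genes written down for the pathway, 45 were listed, and the median log2 difference was -0.05. In tuft cells 2 were called higher and 3 lower. Of all listed genes, 8.31% were called in either direction, 4.32% higher and 3.99% lower. An adjusted p under 0.05 at any fold, which 11.7% of all listed genes reached, held for 2 higher and 5 lower. With ribosomal centring, 3 were called higher and 0 lower, and the median was 0.79 against 0.87 for all genes.

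Both genes called higher encode ligands. Dll1 measured 3.36, 2.43, 2.69, 3.84 and 3.10 in tuft libraries 1 to 5. In non-tuft libraries 1 to 5 it measured 0, 0.17, 1.47, 1.43 and 0, of which 3 are at the floor. The groups did not overlap, and the difference was 2.47 ± 0.46 (SE) with a limma adjusted p of 0.00357. Jag2 measured 3.05, 3.55, 2.20, 2.42 and 2.11 in tuft libraries and 1.25, 0.17, 0.30, 0 and 0 in non-tuft libraries. Its groups did not overlap either, and the difference was 2.32 ± 0.43 (SE) with an adjusted p of 0.00332. Jag1, another ligand gene, differed by -1.46 with overlapping groups (adjusted p = 0.161).

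The receptor, cofactor and target genes that passed the test were lower in tuft cells. The receptor is 1 gene, Notch2, since Notch3 did not pass and Notch1 and Notch4 were not listed. Notch2 measured 0.43 to 1.86 in tuft and 1.97 to 4.71 in non-tuft libraries (-1.82, limma adjusted p = 0.0403). Its difference was under the fold threshold, with an adjusted p over 0.05 in 7 of the 10 fits without 1 library. Maml2, a coactivator of the Notch complex, differed by -1.89 (adjusted p = 0.0170), also under the fold threshold. Tle6, of the Groucho corepressor family, differed by -2.13 (adjusted p = 0.00752), and was not called without non-tuft 4 or without non-tuft 5. The other listed Maml and Tle genes did not pass the test and went both ways. Maml3 differed by 0.56, Tle3 by 0.86 and Tle4 by 1.05, against -0.30 for Tle1 and -0.29 for Tle2. With ribosomal centring the limma adjusted p was 0.181 for Notch2, 0.143 for Maml2 and 0.101 for Tle6.

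Heyl, a target gene of the Hes and Hey family, was listed at 0 in all 5 tuft libraries and measured 1.13, 2.39, 2.42, 2.21 and 3.01 in the non-tuft libraries (limma adjusted p = 0.00286), and it had an adjusted p of 0.0558 with ribosomal centring. Hey1, Hes7, Dtx1 and Notch3 were also listed at 0 in every tuft library, and none of them passed the test. Hes6, which antagonizes Hes1 protein, measured 5.66 to 7.41 in tuft and 2.64 to 6.78 in non-tuft libraries (1.58, adjusted p = 0.220). Among the 5 listed Hes and Hey genes, Hes6 had the highest mean level in tuft cells (6.71), and Hes6 (5.13) and Hes1 (5.12) did not differ beyond their spread in non-tuft cells. Rbpj, the DNA-binding protein of the pathway, differed by -0.30 (adjusted p = 0.793).

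**Figure D3:**
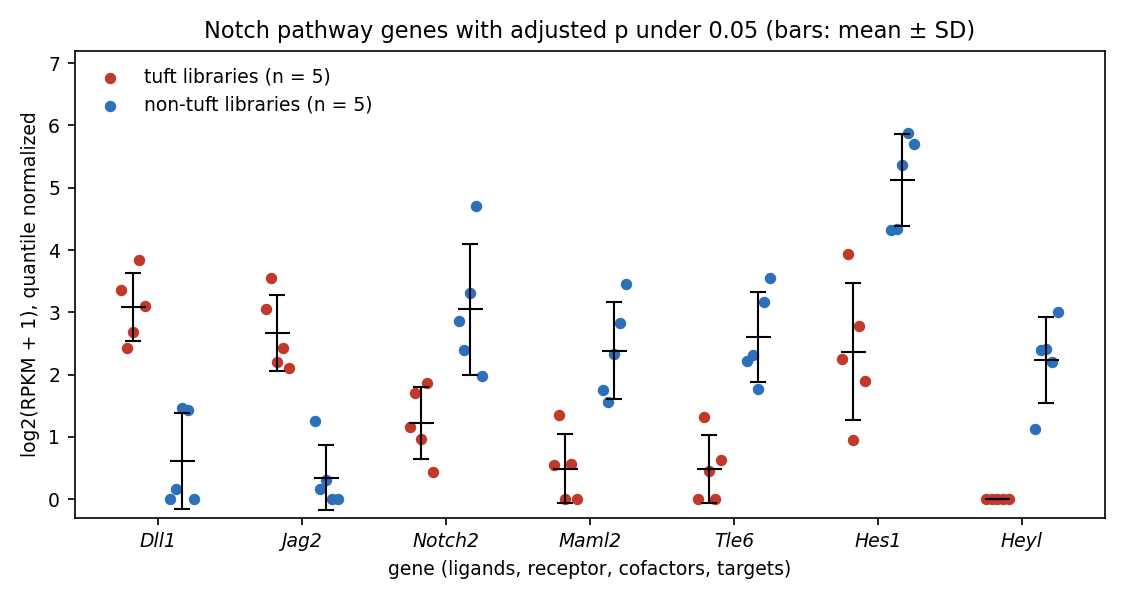
Log2(RPKM + 1) of the 7 listed Notch pathway genes with an adjusted p under 0.05, with 1 point per library and bars giving the mean ± SD of 5 tuft (red) and 5 non-tuft (blue) libraries. The ligands Dll1 and Jag2 lie higher in tuft libraries, and Notch2, Maml2, Tle6, Hes1 and Heyl lie lower, with Heyl at 0 in all 5 tuft libraries.

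Genes that Hes1 is known to repress were examined beside it. Of 9 written down, 7 were listed, with 3 called higher and 1 called lower in tuft cells. Among all listed genes, 4.32% were called higher and 3.99% lower. The median log2 difference of the 7 was 1.58. Leaving out 1 library gave 1 to 3 called higher, with 1 in the fits without non-tuft 2, non-tuft 4 or tuft 1, 2, 3 or 5. Dll1, described above, is one of the 3. Cdkn1a, the cell cycle inhibitor p21, measured 7.16 to 7.68 in tuft and 3.94 to 7.35 in non-tuft libraries (2.02, limma adjusted p = 0.0379). The gene called lower was Ptf1a, which Hes1 represses in progenitors. Hes1 and Ptf1a were both lower in the tuft group, and any part of Hes1 in the Ptf1a difference was not tested. Cdkn1b differed by 0.29 and Cdkn1c by -1.96 (adjusted p = 0.0757).

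Known Sox9 target genes were examined in the same way. Of 17 written down, 12 were listed, with 0 called higher and 2 lower in tuft cells. Among all listed genes, 4.32% were called higher and 3.99% lower. The median log2 difference of the 12 was -1.19. Spp1, the ductal secreted protein osteopontin, measured 3.47 to 8.39 in tuft and 8.73 to 11.66 in non-tuft libraries (-4.55, limma adjusted p = 0.00413). Lcn2, a secreted lipocalin induced in injury, measured 0 to 5.45 in tuft and 7.17 to 9.19 in non-tuft libraries (-6.14, adjusted p = 0.000812). Prom1, a membrane protein of apical protrusions, was higher in tuft cells by 1.34 (adjusted p = 0.0387), under the fold threshold and over 0.05 in 8 of the 10 fits without 1 library. Cftr, the ductal chloride channel, differed by -2.16 (adjusted p = 0.0563), and Krt19, a ductal keratin, by -1.23 (adjusted p = 0.465).

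Duct markers as a whole were mixed. Of 42 listed, 4 were called higher and 7 lower in tuft cells, beside 4.32% of all listed genes called higher and 3.99% lower. The 4 called higher were Krt8, Krt18, Tspan8 and Cd24a. The 7 called lower were Spp1, Aqp5, Tff2, Ambp, Cldn10, Wfdc2 and Dcdc2a. The median log2 difference was -0.79 against 0.02 for all genes. With ribosomal centring, 7 were called higher and 6 lower, and the median was 0.05 against 0.87 for all genes. Leaving out 1 library gave 4 to 5 called higher and 5 to 9 lower. Cldn10, a tight junction claudin, stood at the floor in 3 tuft libraries and measured 4.50 to 6.16 in non-tuft libraries (-4.86, limma adjusted p = 5.01e-05). Dcdc2a, a protein of cilia, differed by -4.70 (adjusted p = 0.000283). Cd24a, a surface glycoprotein, measured 13.11 to 15.21 in tuft and 8.54 to 10.39 in non-tuft libraries, a difference of 4.54 (adjusted p = 0.00021). The summed RPKM of the list was 17738 to 68535 in tuft and 4726 to 23129 in non-tuft libraries. Cd24a and the keratins Krt8 and Krt18, picked out after their values were seen, made up 73.8% to 92.6% of it in tuft and 11.1% to 27.5% in non-tuft libraries. The sum of the other duct markers was 2741 to 6694 in tuft and 3804 to 20571 in non-tuft libraries.

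Islet cells are EpCAM+ and could enter the non-tuft sort, and Hhex is known from delta cells. Of 30 listed islet markers, 0 were called higher and 7 lower in tuft cells. Among all listed genes, 4.32% were called higher and 3.99% lower. Without 1 library in turn 3 to 18 islet markers were called lower, with 18 when non-tuft 4 was left out and 9 without tuft 1. There were 3 or 4 without any 1 of non-tuft 1, 3 and 5 or tuft 2 to 5. The summed islet RPKM was 187 to 415 in tuft and 172 to 24332 in non-tuft libraries, where the lowest value was non-tuft 4. That library had the highest Hhex (3.80) and the highest Hes1 (5.87) of all 10, with Chga, Ins2 and Neurod1 at 0 and Sst, the delta cell hormone somatostatin, at 1.02. In non-tuft 1, 3 and 5, Sst measured 10.87, 11.10 and 9.38, and Hhex measured 3.30, 3.50 and 2.92. Among 6 listed delta cell markers, which include Hhex, 2 were called lower (Hhex and Rbp4), and Sst differed by -5.70 (limma adjusted p = 0.0539). Without non-tuft 4, 4 delta cell markers were called lower, without non-tuft 2 or tuft 1 there were 3, and Sst was called without non-tuft 2 or 4. Tuft 1, with the highest Hhex among tuft libraries, was also the 1 tuft library with Neurod1 (2.19), Pcsk2 (1.05) and Rbp4 (3.96) off the floor. Without tuft 1 the Hhex difference was -3.04.

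The acinar signal also moved with the groups. Hes1 was lowest in tuft 3 and tuft 5, which had the 2 lowest acinar sums, but tuft 4, with the highest acinar sum of the tuft libraries (log2 of 17.2), had a Hes1 of 2.78 against 3.94 in tuft 2 (log2 acinar sum 15.5). The part of acinar, ductal and islet cells in the Hes1 and Hhex differences was not tested.

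**Figure D4:**
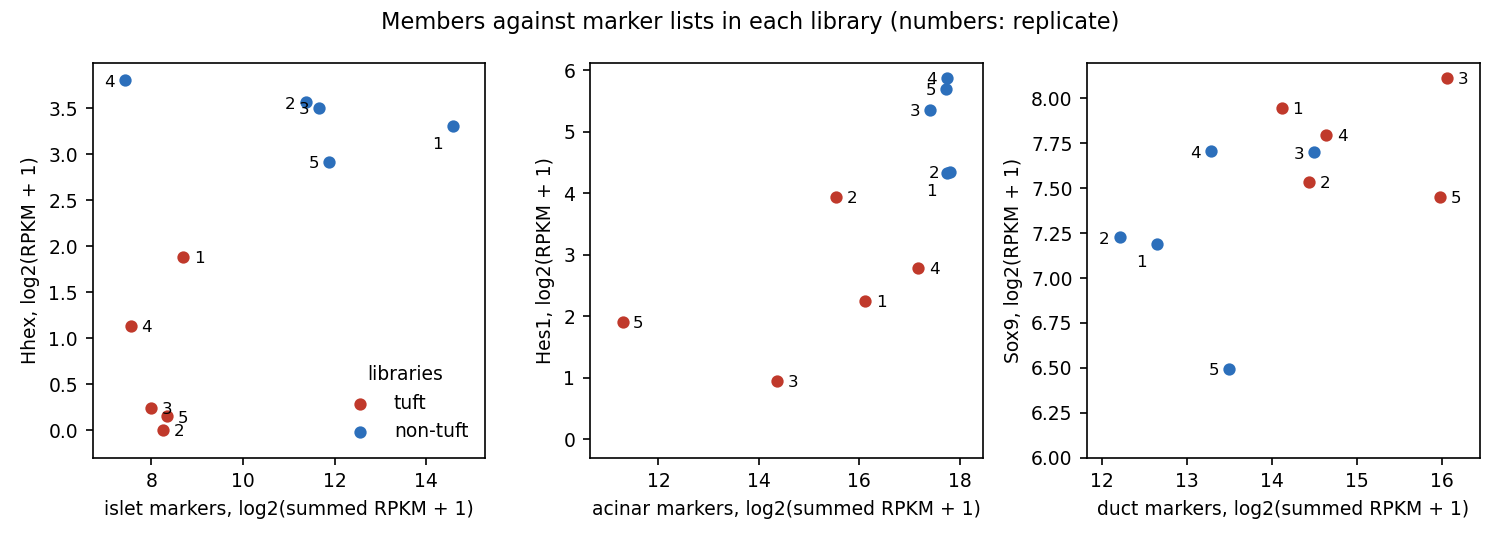
Hhex against summed islet markers, Hes1 against summed acinar markers and Sox9 against summed duct markers, all on log2 scales, with 1 point per tuft (red) or non-tuft (blue) library numbered by replicate. Non-tuft 4 has the lowest islet sum (7.43) and the highest Hhex (3.80), and non-tuft libraries have the highest acinar sums and Hes1 values, while the duct sum is carried in tuft libraries by Cd24a, Krt8 and Krt18.

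Markers of cells that the gates should remove were also examined. Of 33 leukocyte markers written down, 12 were listed, and the eosinophil genes Epx, Prg2 and Ccr3 were not. Ptprc, described above, was counted among the tuft markers. Of the 12, 1 was called higher in tuft cells (Kit, 2.02, limma adjusted p = 0.0300, over 0.05 in 6 of the 10 fits without 1 library) and 0 lower. Among all listed genes, 4.32% were called higher and 3.99% lower. C1qa, of macrophages, was at the floor in 3 tuft and 4 non-tuft libraries. Of 14 listed fibroblast and endothelial markers, 2 were called higher (Tek and Esam) and 1 lower, the pericyte gene Rgs5 (-3.98, adjusted p = 0.00115), with a median of -0.56 that became 0.29 under ribosomal centring and 0.50 without non-tuft 5. Tek, an endothelial receptor kinase, measured 4.56 to 6.42 in tuft libraries, while each non-tuft library listed it at its floor. The other endothelial genes of the list were mixed. Tie1 was higher in tuft cells by 1.35 (limma adjusted p = 0.0318), under the fold threshold. Pecam1 differed by -1.16 (adjusted p = 0.459) and Eng by -0.56 (adjusted p = 0.605), with 4 and 3 tuft libraries at the floor. The fibroblast genes marked out tuft 5 and non-tuft 5. Dcn, a matrix proteoglycan, measured 6.84 in tuft 5 and 8.34 in non-tuft 5, was at 0 in the other 4 tuft libraries and reached 2.41 in the other non-tuft libraries. Col3a1, a fibrillar collagen, measured 5.10 in tuft 5 and 7.26 in non-tuft 5, was at 0 in the other 4 tuft libraries and reached 0.28 in the other non-tuft libraries. The lowest Sox9 of each group came from these 2 libraries (7.45 and 6.50), and without both the Sox9 difference was 0.39 (adjusted p = 0.565). The part of these cells in the members' values was not tested. The summed leukocyte RPKM was 21.8 to 92.8 in tuft and 17.9 to 149.6 in non-tuft libraries.

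The genes whose pattern over the 10 libraries was most like each member were found from the root mean square difference of mean-centred log2 values among 7270 genes with a mean of at least 2. For Sox9 they were Tmem9 (0.166), Ndufs4 (0.262) and Actn4 (0.292), none of which passed the test between the groups. For Hes1 they were Zfp36l1 (0.451), an RNA-binding protein that promotes mRNA decay, Csrp2 (0.597), a LIM domain protein, and Dram1 (0.601), a lysosomal membrane protein. For Hhex they were Cgnl1 (0.460), a junction protein, Cald1 (0.472), which binds actin, and Cadm1 (0.493), an adhesion molecule. All 6 genes named for Hes1 and Hhex were called lower in tuft cells, by 2.24 (Cgnl1) to 3.38 (Csrp2) on the log2 scale. The likeness measure includes the difference between groups, so these calls are no separate result.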

How the data were processed

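RNA was profiled in 5 tuft and 5 non-tuft epithelial libraries of 100 sorted cells each, grouped and numbered from the sample titles. The authors aligned reads to mm9 with HISAT2, estimated RPKM with StringTie and Ballgown, transformed them to log2(RPKM + 1) and quantile normalized them, and versions are not given in the sources used here. The deposited log2 values were used as they stand. Quantile normalization gives every library nearly the same distribution, so a shift of the whole transcriptome cannot be seen. The authors also removed genes of low variance in RPKM, so a gene that is not listed may be unexpressed or invariant. The deposited table also holds the authors' own comparison (a fold ratio, its p-value and the adjusted p-value), 3 columns that were not used. Counts were not used here, so depth is unknown.

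The 2 groups were compared on all 12160 listed genes with limma 3.58.1 (lmFit, eBayes) under R 4.3.3. P-values were Benjamini-Hochberg adjusted over all of them, and a gene was called where that value was under 0.05 and the fold over 4. For a single gene, an exact permutation test over libraries, two-sided, was added. Each tuft library came from 1 mouse. Both populations came from a set of 5 mice, but the sources used here do not say that libraries with 1 number share a mouse. The groups were therefore treated as unpaired, also in the permutation tests, with the replicate number as a block among the alternatives of the limma fit. Deviations from the group mean correlated at 0.0619 to 0.240 between same-numbered libraries and at -0.174 to 0.139 between differently numbered ones. A shared mouse is thus possible and was not settled here.

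The members and the 12 gene lists, written from general knowledge, were chosen with earlier results of these data known. Named genes are the members, the 3 genes most like each, every duct and progenitor factor and Notch gene with an adjusted p under 0.05, the 3 genes of each other list with the smallest p, and Siglecf and Epcam, which makes 51. The values of 2 genes of these lists are not reported here, though they count in the list totals. Others were named after their values were seen. Gene models come from GENCODE on NCBIM37 (mm9) and the promoter from RefSeq on GRCm38.p6. Alternatives were 0.1 or 10 added in place of 1, a minimum mean, ribosomal centring, a robust trended fit, a replicate block, each library left out in turn and, added after seeing the data, both libraries numbered 5 left out.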

Additional observations from a re-analysis of the deposited data

Results flagged for a closer look

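No value of Sox9, Hes1 or Hhex stood apart from its group. Among 98 groups of 5 libraries, of the genes named and the members, 13 had 1 library far from the other 4 on the log2(RPKM + 1) scale. Chance flags about 1 in 20 groups of freely varying values, but that rate does not hold where 4 libraries stand at the floor. There any value off the floor is flagged, as for Neurod1, Pcsk2, Rbp4 and Rgs5 in tuft and C1qa and Siglecf in non-tuft libraries. The number of flags is therefore not set against chance.

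Tuft 1 accounted for 6 of these. It was the 1 tuft library with the islet genes Neurod1 (2.19), Pcsk2 (1.05) and Rbp4 (3.96) and the pericyte gene Rgs5 (0.64) off the floor, and it was low in the tuft marker Folr1 (7.04) and high in Ccdc129 (4.88). Non-tuft 4 was low in Pcsk2 (0.43) and high in Cadm1 (4.97). Tuft 3 was high in the macrophage gene C1qa (2.81), and non-tuft 3 was the 1 non-tuft library with C1qa off the floor, at 0.0774. Non-tuft 3 was high in Prom1 (8.52), non-tuft 1 in the Notch ligand Jag2 (1.25) and non-tuft 2 in Siglecf (1.61), the antigen that was to be absent from that sort.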

How the results depend on the processing

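Of 17 alternatives each, Sox9 stayed on its side of the call in 17, Hes1 in 14 and Hhex in 15, and the direction held in each. With 10 added in place of 1, the Hes1 difference was -1.58 and that of Hhex -0.88, and 278 genes were called in place of 1010. With ribosomal centring they were -1.91 and -1.89, and 1631 genes were called, 1409 higher in tuft and 222 lower (86.4% higher, against 52.0% on the deposited scale). Both these alternatives kept the adjusted p of Hes1 and Hhex under 0.05 and took their fold under 4. Without both libraries numbered 5, chosen after seeing the data, the Hes1 difference was -2.49 and not called (adjusted p = 0.0533), with fewer libraries in the fit, and 806 genes were called. Without 1 library in turn, the differences ran from 0.31 to 0.62 for Sox9, -3.15 to -2.40 for Hes1 and -3.04 to -2.57 for Hhex, and 841 to 1010 genes were called. Over all alternatives the adjusted p was 0.0394 to 0.617 for Sox9, 0.00333 to 0.0533 for Hes1 and 0.000732 to 0.00985 for Hhex. With the replicate number as a block, 1009 genes were called, and the adjusted p was 0.0229 for Hes1 and 0.00598 for Hhex; not every library correlated best with its own number. The block took Nr5a2 (adjusted p = 0.0597), Hnf4a (0.0590) and Kit (0.0510) out of the calls and Ehf (0.0544), Creb3l1 (0.0688) and Prom1 (0.0570) over 0.05, and brought Neurod1 in (0.0387). The duct and progenitor factors called went from 2 to 1 higher and from 5 to 4 lower. Those called lower went from 7 to 12 for islet, 2 to 3 for Pdx1 target and delta cell, 1 to 2 for fibroblast and endothelial, 7 to 6 for duct and 32 to 30 for acinar genes, and tuft markers called higher from 41 to 40. An adjusted p under 0.05 with no fold threshold held for 1428 genes. Of the 9 genes most like a member, 6 were shared when all listed genes could be chosen. Depth is unknown, so it could not be used to weigh low values, and those of Hhex in tuft cells are the least certain.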

Other observations

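The Sox family held 6 listed genes, of which 0 were called. Sox9 had the highest mean level in both groups. Sox4, a factor of endocrine progenitors, was next, at 4.32 in tuft and 5.49 in non-tuft cells (difference -1.17, limma adjusted p = 0.137). Sox6 was listed at 0 in all 5 tuft libraries and measured 0 to 3.76 in the non-tuft libraries (adjusted p = 0.127).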
